A study of Mus musculus with 14 samples.

Results

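The genes described here are Lifr, Il6st, Jak1, Stat3 and Socs3, which encode the core of the LIF-STAT3 pathway and are 5 of the 22380 protein-coding genes of the GENCODE vM1 annotation of the mouse genome build mm9. They were chosen by name, with earlier results of these data known, and not by a rule on a measured value. All peaks whose centre lay within 100 kb of 1 of these gene bodies were taken from 8 ChIP-seq peak lists, which gave 35 of 24416 peaks. Peaks were chained into 1 site where neighbouring centres lay within 100 bp, so the outer centres of a site can lie further apart. The 35 peaks fell into 16 sites.

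The lists came from mouse embryonic stem (ES) cells of the ROSA-TET system, in which removal of tetracycline for 26 h induces a transgene. Clones A6, B8 and C4 carry Flag-tagged Sim2 with Venus under the hCMV*-1 promoter, and EB3 is the parental line without Sim2-Flag. FLAG ChIP (anti-FLAG M2) was done in all 4 lines, with 1 culture each, and NANOG, OCT4, MED1 and MED12 ChIP was done in A6 from the same cross-linked cells, with 1 library each. LIF was present in the medium of all lines. SIM2, a transcription factor of the bHLH-PAS family, is therefore overexpressed in A6, B8 and C4, each of which is a single clone, and every NANOG, OCT4 and Mediator value below comes from cells that express it. The NANOG and OCT4 lists share 1 input library, and so do the MED1 and MED12 lists. SOX2 peaks and NANOG, OCT4 and Mediator peaks of EB3 were not analysed here. The lists hold positions and tag counts of peaks but no expression values, and none of them is a list of STAT3 binding.

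Leukemia inhibitory factor (LIF) binds the receptor chain LIFR, which pairs with the shared signalling chain gp130, the product of Il6st. The pair activates the tyrosine kinase JAK1, which phosphorylates the transcription factor STAT3, and STAT3 then enters the nucleus. Socs3 is a classical STAT3 target, and its product binds the receptor and JAK and ends the signal. In mouse ES cells this pathway sustains self-renewal together with the core factors OCT4, SOX2 and NANOG, and Mediator is the coactivator complex that links such factors to RNA polymerase II.

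The sequences of the sites on which the results turn are shown first. They are the sites with a SIM2 peak in at least 2 clones, centred on the mean SIM2 position, and for Il6st and Socs3, which had none, the site with peaks of most lists, centred on the NANOG peak. The NANOG, OCT4 and MED12 site of Lifr was added after its motif matches had been seen. Each is 201 bases of the mm9 + strand, and all of them lie in intergenic sequence upstream of their gene. Capitals mark exact matches to the motifs searched, except in the first sequence, which held none and in which capitals mark a repeated stretch.
Lifr, 12.6 kb upstream, chr15:7066833-7067033: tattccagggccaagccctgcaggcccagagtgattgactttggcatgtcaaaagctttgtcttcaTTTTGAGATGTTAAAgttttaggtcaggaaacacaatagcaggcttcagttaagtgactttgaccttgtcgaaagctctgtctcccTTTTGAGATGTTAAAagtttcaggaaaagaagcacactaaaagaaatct
Lifr, 13.7 kb upstream, chr15:7065806-7066006: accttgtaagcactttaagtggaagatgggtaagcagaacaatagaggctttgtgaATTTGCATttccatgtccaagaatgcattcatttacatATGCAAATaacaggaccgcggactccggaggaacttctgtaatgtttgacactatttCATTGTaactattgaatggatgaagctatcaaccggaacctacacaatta
Il6st, 12.4 kb upstream, chr13:113252695-113252895: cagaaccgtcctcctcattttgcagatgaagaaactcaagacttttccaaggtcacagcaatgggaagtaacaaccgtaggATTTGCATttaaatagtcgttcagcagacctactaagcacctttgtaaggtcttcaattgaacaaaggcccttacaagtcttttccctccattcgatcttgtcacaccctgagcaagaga
Stat3, 51.8 kb upstream, chr11:100852484-100852684: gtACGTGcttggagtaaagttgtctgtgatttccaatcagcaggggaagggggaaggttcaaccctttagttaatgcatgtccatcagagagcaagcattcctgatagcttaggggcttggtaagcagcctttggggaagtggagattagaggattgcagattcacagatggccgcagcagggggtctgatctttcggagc
Socs3, 5.58 kb upstream, chr11:117836830-117837030: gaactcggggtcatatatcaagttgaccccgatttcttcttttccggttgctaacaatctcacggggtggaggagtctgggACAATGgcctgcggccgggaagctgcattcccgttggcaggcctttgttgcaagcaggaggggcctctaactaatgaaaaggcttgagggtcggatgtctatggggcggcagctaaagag

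Lifr, Il6st, Stat3 and Socs3, 4 of the 5 genes, had peaks in the same 3 kinds of list. NANOG, SIM2 in A6 and SIM2 in B8 each had a peak within 100 kb of all 4, while the lists of C4 and of the EB3 control had none near any of the 5. Of all protein-coding genes, 67.6% had a NANOG peak in such a window, 23.0% an A6 peak, 19.8% a B8 peak, 6.06% a C4 peak and 1.14% an EB3 peak. OCT4 and MED12 peaks were found at the same 3 genes, Lifr, Il6st and Socs3, against 21.8% and 10.9% of all protein-coding genes. MED1 peaks were found at Lifr and Il6st, against 7.97% of all protein-coding genes. The 35 peaks comprised 14 of NANOG, 5 of OCT4, 5 of MED12, 3 of MED1, 4 of A6 and 4 of B8. The windows were 204 to 313 kb long, the median over all protein-coding genes being 215 kb, and each held between 2 and 5 protein-coding genes including the member.

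**Figure D1:**
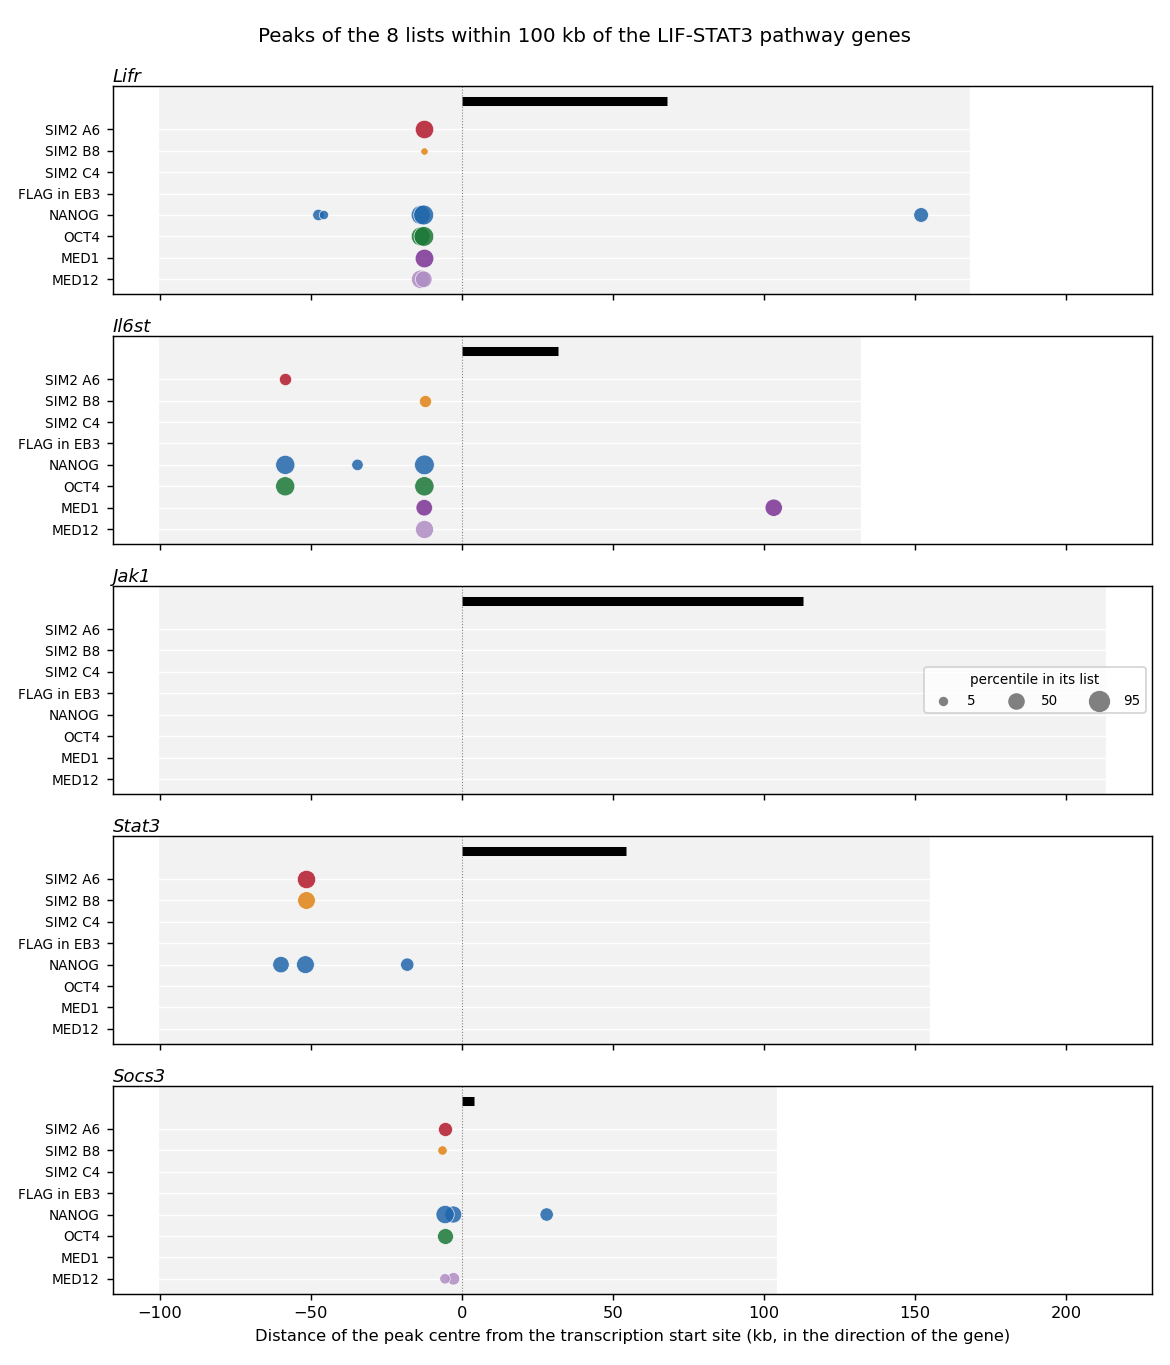
Positions of the peaks of each list (rows) by distance of the peak centre from the transcription start site of the gene, in kb and in the direction of the gene. The black bar is the gene body, the grey area the window of 100 kb to either side, and the size of a point is the percentile of the peak within its own list. Upstream positions hold most peaks, the Jak1 window is empty, and the rows of C4 and EB3 hold no point.

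The size of a peak is given as its deposited normalized tag count, a signal that HOMER scales to library size. It is not simply the total tags of the peak rescaled. The B8 peaks at Lifr and Stat3 both held 14 tags but had normalized tag counts of 2.7 and 6.1. The size is also given as the percentile in its own list. This is the share of the peaks of that list that are lower, with ties counted at their middle rank. Fold is the enrichment over the input that HOMER computed. The normalized tag count was on the same scale as the peak caller's score in A6 and EB3, where their median ratio in tags was 0.97 and 0.996, and close to 0.5 times that score in the other lists, so sizes are compared within a list only.

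Lifr, the ligand-binding receptor chain, had the highest NANOG peak among the 5 genes. It lay 12.7 kb upstream of the gene (chromosome 15, 7079559 to 7147489, + strand), with a normalized tag count of 35.6, 85 tags (exact 95% Poisson interval 67.9 to 105) and a fold of 39.18, and it was number 66 of the 14815 NANOG peaks. Peaks of 5 further lists had centres within 77 bp of its centre, so 6 of the 8 lists had a peak here. The OCT4 peak had a normalized tag count of 11.4 and a fold of 10.12 and was number 62 of 2532. The MED1 peak had a normalized tag count of 9.5 and was number 102 of 762, and the MED12 peak had 7.3 and was number 312 of 1071. Both Mediator subunits thus had a peak at the same place as both pluripotency factors.

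SIM2 was found at this Lifr site in 2 of the 3 clones. In A6 the normalized tag count was 16.3 and the fold 10.73, which made it number 367 of 2387 peaks. In B8 the normalized tag count was 2.7, percentile 4.19 of its list, but the peak held 14 tags (interval 7.65 to 23.5), its fold was 5.96, and by the peak caller's score it was at percentile 70.8. The place of the B8 peak in its list therefore depended on which of these deposited values was used. In C4 and in EB3 no peak was listed within 100 kb. The centre of the A6 peak lay 1 bp from the OCT4 centre and 77 bp from the NANOG centre, and the B8 centre lay 0 bp from the MED12 centre and 19 bp from the NANOG centre.

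A further site of Lifr lay 979 bp further upstream, measured between the NANOG peaks. Here NANOG had a normalized tag count of 15.5 and a fold of 11.11, OCT4 had 8.6 and 6.65, and MED12 had 9.3 and 4.1. The centres of NANOG and OCT4 were 3 bp apart. No SIM2 and no MED1 peak was listed at this place, although MED12 was higher here (9.3) than at the SIM2 site (7.3). The MED12 intervals of 12.2 to 30.9 tags for 20 tags here and of 14.6 to 34.5 for 23 tags there overlapped, and the order of the tags was the reverse of the order of the normalized counts.

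The remaining peaks of the Lifr window were NANOG peaks with no peak of another list beside them. They lay 47.5 and 45.7 kb upstream, with normalized tag counts of 4.6 and 3.9, and 152.0 kb downstream of the start in an intron of Egflam, with 6.2. All of them were below or at the median of the NANOG list, which was 6.2. The Egflam peak was nearer to the start of Egflam than to that of Lifr.

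Il6st encodes gp130, the signalling chain that LIFR shares with the receptors of the IL-6 cytokines. Its gene (chromosome 13, 113265216 to 113297068, + strand) had 2 sites with several factors, and SIM2 was listed at both but in a different clone at each. At 12.4 kb upstream NANOG had a normalized tag count of 24, 66 tags (51 to 84) and a fold of 30.42 and was number 343 of 14815. OCT4 had 9.5 and a fold of 10.96 and was number 165 of 2532, MED12 had 8.6 and a fold of 6.1, and MED1 had 6.4 and a fold of 4.71. The SIM2 peak of B8 at this site had a normalized tag count of 4.1 (11 tags, interval 5.49 to 19.7) and a fold of 4.68, below the B8 median fold of 5.53, and its centre was 69 bp from that of NANOG. The B8 centre lay 128 bp from MED1 and 136 bp from MED12, beyond the limit of 100 bp. A6 had no peak there.

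The other Il6st site, 58.5 kb upstream, held NANOG with a normalized tag count of 16.3 and a fold of 17.52, OCT4 with 9.2 and a fold of 7.08, and SIM2 in A6 with 9.9 and a fold of 6.49. The A6 peak was at percentile 30.8 of its list. No Mediator subunit and no B8 peak was listed at this site, so the 2 SIM2 peaks of Il6st, 46089 bp apart, were each seen in 1 clone. A lone NANOG peak of 4.6 lay 34.6 kb upstream. A lone MED1 peak of 7.0 with a fold of 5.66 lay 103.0 kb downstream of the Il6st start in an intron of Il31ra, a receptor gene of the same cytokine family, 2451 bp from a start site of Il31ra.

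Jak1, the kinase that both receptor chains use, had no peak of any of the 8 lists within 100 kb of its gene body (chromosome 4, 100824972 to 100937887, - strand). This was the case for 29.5% of all protein-coding genes, and 32.4% had no NANOG peak. The Jak1 window was the longest of the 5, at 313 kb. The nearest peaks lay outside it, MED12 with a normalized tag count of 7.3 at 123 kb and NANOG with 5.4 at 124 kb upstream of the gene, and they were nearer to the start of Ak4.

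Stat3, the transcription factor that the pathway activates, had SIM2 in 2 clones and NANOG but no OCT4 and no Mediator peak. The SIM2 site lay 51.8 kb upstream of the gene (chromosome 11, 100746412 to 100800854, - strand). In A6 its normalized tag count was 15.9, its fold 10.44 and its rank 394 of 2387. In B8 its normalized tag count was 6.1, with 14 tags (7.65 to 23.5), its fold 5.96 and its rank 410 of 2137. These were the 2 clones with a peak at Lifr too, and the A6 and B8 centres at Stat3 were 27 bp apart, whereas at Lifr they were 58 bp apart.

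The NANOG peak of this Stat3 site had a normalized tag count of 10.1 and a fold of 14.29, was number 3092 of 14815, and had its centre 93 bp from that of A6. It was the highest of 3 NANOG peaks in the Stat3 window. The others had normalized tag counts of 7.7 at 59.9 kb and 5.4 at 18.1 kb upstream, the latter in an exon of Ptrf, a gene of caveolae. The window holds several genes, and the start site nearest to the SIM2 site was that of Atp6v0a1, a subunit of the vacuolar proton pump, at 18195 bp from the A6 centre. All 3 NANOG peaks of the Stat3 window were nearer to a start site of Atp6v0a1 or Ptrf than to that of Stat3.

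Socs3, the feedback inhibitor, had its sites closest to the gene (chromosome 11, 117827393 to 117831361, - strand). At 5.58 kb upstream NANOG had a normalized tag count of 11.6, 28 tags (18.6 to 40.5) and a fold of 12.91, and SIM2 in A6 had 10.7 and a fold of 7.06. OCT4 had 5.7 and a fold of 5.73 and MED12 had 4.7 and a fold of 5.36, with 19 tags (11.4 to 29.7). The centres of OCT4, A6 and NANOG lay within 2 bp, and that of MED12 50 bp from NANOG. All 4 were thus present, but at lower ranks than at Lifr. The A6 peak was at percentile 44.4 of its list, OCT4 at 59.6 and MED12 at 19.7, or at 67.3 by the score.

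At 2.84 kb upstream of Socs3, NANOG had a normalized tag count of 8.5 and MED12 had 5.3, with folds of 11.06 and 4.8 and centres 66 bp apart, and no OCT4 or SIM2 peak was listed. A SIM2 peak of B8 lay 6.54 kb upstream, 977 bp from the A6 peak, with a normalized tag count of 3.4, 13 tags (6.92 to 22.2) and a fold of 5.53. No peak of another list coincided with it. SIM2 at Socs3 was therefore seen in A6 at one position and in B8 at another. A lone NANOG peak of 5.4 lay 28 kb downstream of the start.

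**Figure D2:**
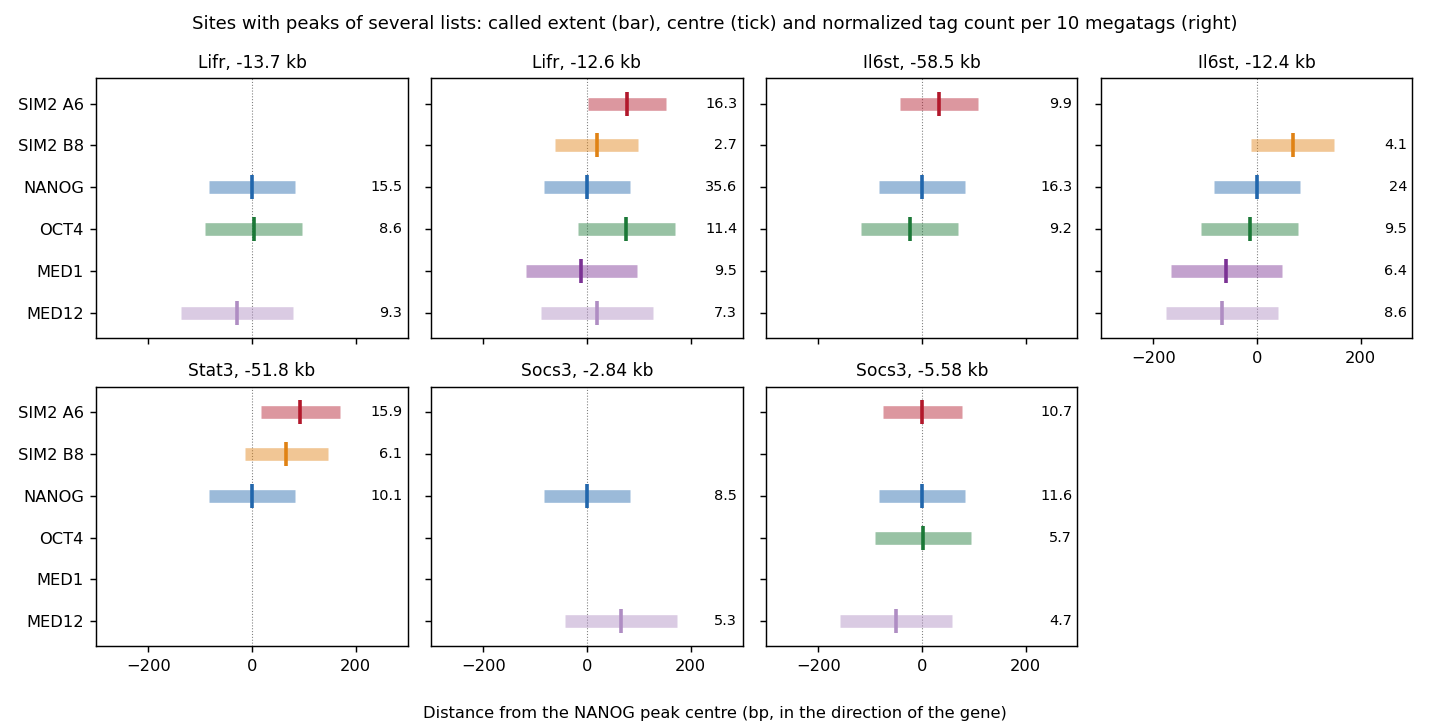
The 7 sites with peaks of at least 2 lists, by distance from the NANOG peak centre in bp, in the direction of the gene, with the called extent of each peak as a bar, its centre as a tick and its normalized tag count per 10 megatags at the right. At Lifr, 12.6 kb upstream, 6 lists overlap, and at Stat3 the SIM2 centres lie 66 and 93 bp to 1 side of the NANOG centre, with no OCT4 or Mediator peak.

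Lifr and Stat3 were the 2 genes with a SIM2 site in at least 2 clones, against 13.4% of all protein-coding genes. In the whole series 1229 SIM2 sites were found in at least 2 clones and 346 in all 3. Near the 5 genes there were 6 SIM2 sites in any clone, of which 4 were seen in 1 clone, as were 65.5% of the 3565 sites of the series. The lack of C4 peaks is read against the size of that list, since of the 1175 sites with A6 and B8 peaks 29.4% also had a C4 peak. Of all A6 peaks, 49.1% had a B8 peak within 100 bp, and of the 4 near the pathway genes 2 did.

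The 4 A6 peaks were ordered Lifr (39 tags by the score, interval 27.7 to 53.3), Stat3 (37, 26.1 to 51), Socs3 (26, 17.0 to 38.1) and Il6st (23, 14.6 to 34.5), and all 4 intervals overlapped. The 4 B8 peaks held 11 to 14 tags and could not be ordered. The intervals cover counting error only, and there is no replicate library of any of these ChIPs within a clone. For OCT4 the 5 peaks had normalized tag counts of 11.4 and 8.6 at Lifr, 9.5 and 9.2 at Il6st and 5.7 at Socs3. All 5 were above the OCT4 list median of 5.4, and their median percentile was 91.7. For A6 2 of the 4 peaks (16.3 and 15.9) were above the list median of 11.2, and for B8 1 of 4 (6.1) was above the median of 4.8. For MED1 all 3 peaks (9.5, 7.0 and 6.4) were above the list median of 5.7, and for MED12 3 of 5 (9.3, 8.6 and 7.3) were above the median of 6.0, the Socs3 peaks (5.3 and 4.7) being below it. Over all lists 22 of the 35 peaks were above the median of their list, and 24 when the score was ranked instead, with 2 of 3 for MED1, 4 of 5 for MED12, 2 of 4 for B8 and 9 in place of 8 of 14 for NANOG.

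**Figure D3:**
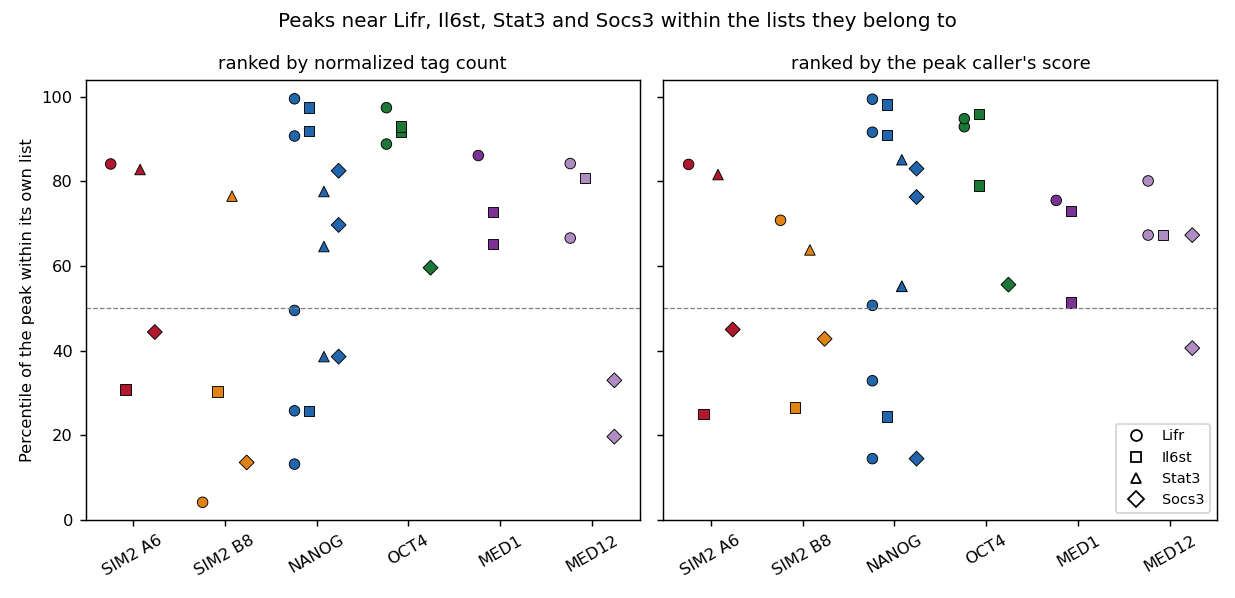
Percentile of each of the 35 peaks within its own list, on the left by normalized tag count and on the right by the peak caller's score, with a symbol for each gene and a dashed line at the median of the list. The 5 OCT4 peaks lie above the line in both panels, and the B8 peak of Lifr moves from 4.19 to 70.8.

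NANOG peaks were the most frequent and were compared by what lay beside them. Of the 14 NANOG peaks near the 5 genes, 6 had an OCT4, MED1 or MED12 centre within 100 bp (42.9%, Wilson 95% interval 21.4 to 67.4%), against 17.3% of all NANOG peaks. OCT4 lay at 5 of them, against 15.1%, 5 had MED12, against 5.08%, and 2 had MED1, against 1.96%. A SIM2 peak of any clone coincided with 5 of the 14, against 13.4% of all NANOG peaks. NANOG, OCT4, a Mediator subunit and SIM2 of any clone met at 3 of the 14, against 2.25%, and this combination was chosen after the values had been seen. At the level of genes, 3 of the 5 (Lifr, Il6st and Socs3) had a NANOG peak with OCT4, MED1 or MED12, against 22.4% of all protein-coding genes, and the same 3 had a site with all 4, against 4.21%. With 5 genes and 1 library of each factor these shares describe the loci and were not tested. The Wilson interval takes the 14 peaks as independent, although several share a locus, as do the 2 Lifr peaks 979 bp apart. It therefore does not serve as a test against the share of all NANOG peaks.

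The NANOG peaks with OCT4 or Mediator were the larger ones. The 6 had normalized tag counts of 8.5 to 35.6 (median 15.9) and folds of 11.06 to 39.18, and the 8 without had 3.9 to 10.1 (median 5.4) and folds of 5.07 to 14.29. The ranges overlapped through the Stat3 peak with SIM2 (10.1) and the Socs3 peak with MED12 alone (8.5). The same held for the whole list, in which the 2562 NANOG peaks with OCT4 or Mediator had a median of 13.2 and the 12253 without had 5.4. The highest NANOG peak of each gene was 35.6 at Lifr, 24 at Il6st, 11.6 at Socs3 and 10.1 at Stat3. The interval of Lifr (67.9 to 105 tags) overlapped that of Il6st (51 to 84), that of Il6st did not overlap that of Socs3 (18.6 to 40.5), and the latter overlapped that of Stat3 (21.1 to 44.0 for 31 tags), which held more tags than Socs3 despite its lower normalized count.

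**Figure D4:**
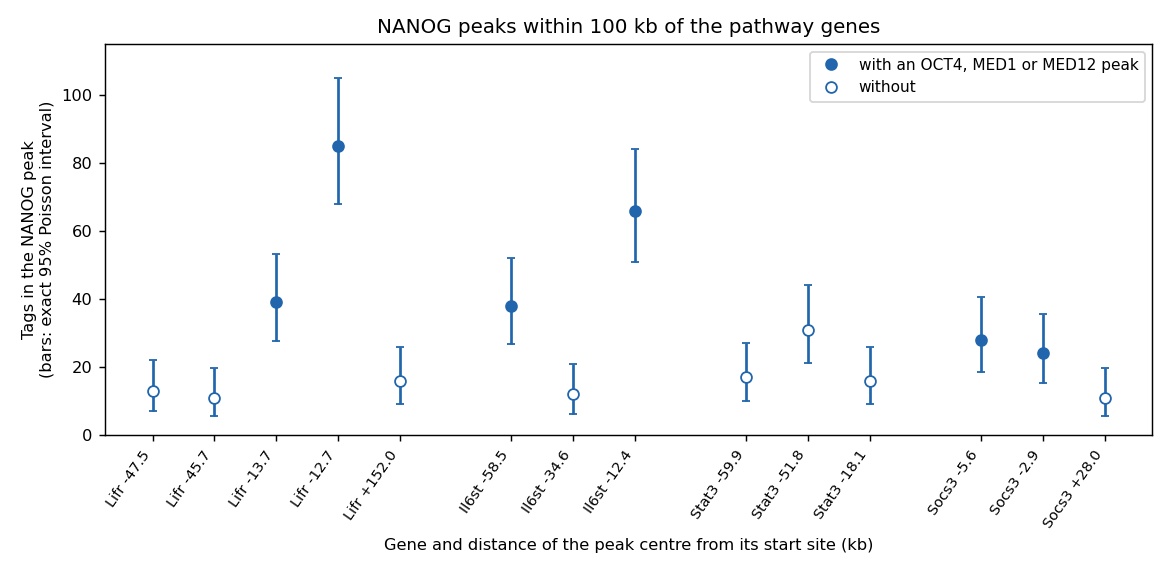
Tags in each of the 14 NANOG peaks (points, with exact 95% Poisson intervals), by gene and distance from the start site in kb, filled where an OCT4, MED1 or MED12 peak lies within 100 bp. The 85 tags of Lifr at 12.7 kb and the 66 tags of Il6st at 12.4 kb upstream are the highest, and every open point except the Stat3 site with SIM2 is at or below 17 tags.

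The number of NANOG peaks in a window was 5 at Lifr, 3 each at Il6st, Stat3 and Socs3 and 0 at Jak1. The mean over the 5 was 2.8 and that over all protein-coding genes 1.68. Lifr was at percentile 93.6 of all protein-coding genes by this number, Il6st, Stat3 and Socs3 were at 80.5 and Jak1 was at 16.2. These counts were not corrected for window length. The window was 268 kb at Lifr, 232 kb at Il6st, 254 kb at Stat3, 204 kb at Socs3 and 313 kb at Jak1, against a median of 215 kb. The window was measured from the gene body, and the peaks nearest to its edge were the MED1 peak in Il31ra, 71.4 kb from the Il6st body, and the NANOG peak in Egflam, 84.1 kb from that of Lifr. The nearest peak outside was a NANOG peak of 8.5 at 103.0 kb from Socs3. A SIM2 site of A6 (9.4) and B8 (7.5) lay 176.0 kb upstream of Lifr and outside its window, between Lifr and Osmr, the oncostatin M receptor.

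The sequences were searched on both strands, 100 bp to either side of the NANOG centre, for 7 exact patterns. The octamer ATGCAAAT, which OCT4 binds, was found at 2 of the 14 NANOG peaks against 6.97% of all NANOG peaks, namely at the Il6st site 12.4 kb upstream and, in 2 copies, at the Lifr site 13.7 kb upstream. Both were sites with an OCT4 peak, and the other 3 NANOG peaks with OCT4 had no exact match in this window. The SOX pattern CATTGT was found at 4 of the 14 (21.8% of all), among them the Socs3 site 5.58 kb upstream and the Lifr site with the octamers. The ESRRB pattern TCAAGGTCA was found once, at the Socs3 site 2.84 kb upstream (2.47% of all), and the homeodomain pattern CCATTA was not found (11.7% of all).

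The STAT pattern TTCNNNGAA, the half-site pair that STAT dimers bind, was found at 1 of the 14 NANOG peaks against 8.86% of all, the peak of 3.9 that lay 45.7 kb upstream of Lifr. The stricter pattern TTCCNGGAA, whose matches are all matches of the former, was found at none, against 1.34% of all. The core ACGTG of SIM and ARNT dimers was found at 1, the peak in Ptrf, on both strands in overlapping copies (5.42% of all). Of the 2 SIM2 sites in at least 2 clones, the Stat3 sequence held ACGTG at positions 3 to 7, at its edge, and the Lifr sequence held none of the 7 patterns. Of all 1229 SIM2 sites 14.1% held ACGTG in a window of this length and 10.2% held TTCNNNGAA. A match is a description of the sequence and does not show that the factor binds there.

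The Lifr SIM2 site held a direct repeat. A stretch of 15 bases, ttttgagatgttaaa, occurred at positions 67 to 81 and again at positions 153 to 167 of the sequence shown, 86 bp apart. Of all NANOG windows of 201 bp, 2.05% held a direct repeat of at least this length, and of the windows of SIM2 sites in at least 2 clones 1.71% did. In the other sequences shown the longest direct repeat was 6 to 9 bases.

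A list of 41 further genes of the pathway was examined in the same way, of which 40 were found by symbol in the annotation. The 40 pool signalling components with 10 known STAT3 targets in ES cells, and were listed with earlier results of the data known. NANOG peaks lay within 100 kb of 29 of the 40 (72.5%), close to the 67.6% of all protein-coding genes. A6 peaks lay near 18 (45%, against 23.0% of all protein-coding genes). B8 peaks lay near 14 (35.0%, against 19.8%) and C4 peaks near 5 (12.5%, against 6.06%). OCT4 peaks lay near 13 (32.5%, against 21.8%). MED1 and MED12 peaks lay near 8 of the 40 each, against 7.97% and 10.9%. EB3 peaks lay near 3 (7.5%, against 1.14%), so the control without Sim2-Flag was also above its share of all protein-coding genes. SIM2 sites in at least 2 clones lay near 13 of the 40 (32.5%, against 13.4%). A NANOG peak with OCT4, MED1 or MED12 lay near 16 of the 40, against 22.4%. The 10 STAT3 targets made up 9 of these 16 and 6 of the 13 genes with OCT4. They made up 4 of the 13 genes with a SIM2 site in at least 2 clones. The shares of the 40 are therefore not those of the signalling components alone. These shares were not tested.

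**Figure D5:**
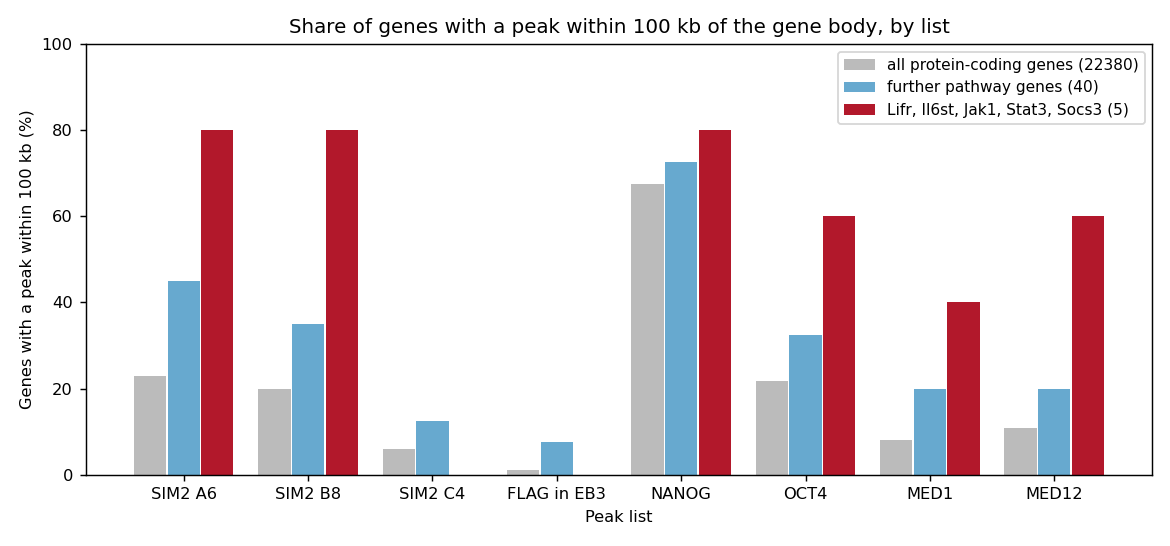
Percentage of genes with a peak within 100 kb of the gene body, for each list, in all protein-coding genes (grey), the 40 further pathway genes (blue) and the 5 genes described here (red). The blue bars include 10 known STAT3 targets in ES cells. The red bars are highest for A6, B8 and NANOG, at 4 of 5 genes each, and are 0 for C4 and EB3.

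Among the ligands, 5 of 7 had a NANOG peak, a share near the 67.6% of all protein-coding genes, and none had a Mediator peak, which 7.97% (MED1) and 10.9% (MED12) of all had. Lif, the ligand itself, shared its peaks with the neighbouring ligand gene Osm, since both windows held the same 2 NANOG peaks and 1 OCT4 peak, by their centres, and no SIM2 peak. Il6 had a SIM2 site in A6 (12.9) and C4 (6.6) with NANOG and OCT4, nearer to the start of Gm17448, and Il11 had a site in all 3 clones that was nearer to Brsk1, with a normalized tag count of 31.3 in clone A6, of 13.6 in B8 and of 11 in C4. Of the 4 further receptors Osmr had a SIM2 site in at least 2 clones, as had 13.4% of all protein-coding genes. It was the one shared with the intergenic space upstream of Lifr. No Mediator peak was listed near any of the 4, and of all protein-coding genes only 7.97% had MED1 and 10.9% had MED12. Among the kinases Jak3 had a SIM2 site in A6 (12) and B8 (4.8) at 1.37 kb downstream of its start, with NANOG. Of the 3 further kinases, 2 had an A6 peak, 1 a B8 peak and 1 a SIM2 site in at least 2 clones. Of all protein-coding genes, 23.0%, 19.8% and 13.4% had these.

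Among the inhibitors and phosphatases, Socs2, a relative of Socs3, had a SIM2 site in all 3 clones 44.2 kb upstream and nearer to the start of Mrpl42, where A6 had 24.9, B8 10.9 and C4 9.5, and with NANOG and OCT4 but no Mediator peak. Pias1 had a site in A6 (9.9) and B8 (2.0) that was nearer to Cln6, and the phosphatase gene Ptpn6 had a MED1 peak (10.8) that was nearer to Grcc10. In the adaptor branch Ptpn11 had a SIM2 site in A6 (9.4) and B8 (3.4) that was nearer to Rph3a, and Gab1 had a MED1 peak (3.8) that was nearer to Smarca5.

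The known STAT3 targets in ES cells carried most of the Mediator peaks. Of the 10 found, 8 had a MED12 peak (Klf4, Gbx2, Pim1, Pim3, Klf5, Myc, Mcl1 and Bcl3) and 6 a MED1 peak (the same without Pim3 and Bcl3), against 10.9% and 7.97% of all protein-coding genes, whereas of the other 30 genes none had MED12 and 2 had MED1. The Mediator peaks of Gbx2, Pim3 and Bcl3 were nearer to the starts of D130058E05Rik, Creld2 and Pvrl2. SIM2 sites in at least 2 clones lay near 4 of the 10 targets, Klf4, Pim3, Klf5 and Mcl1, against 13.4% of all protein-coding genes. Klf5, a pluripotency factor, had the highest A6 peak of the list, with a normalized tag count of 35.2 (number 3 of 2387), 14.3 in B8 (number 6 of 2137) and 11.7 in C4 (number 11 of 631). At Mcl1, an anti-apoptotic gene, SIM2 of A6 (12.9) and B8 (6.1) lay 5.6 kb upstream with MED1 (9.5) and MED12 (12.6). These targets were listed with earlier results of the data known, and their Mediator count describes the genes and was not tested.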

How the data were processed

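Peak lists of 8 ChIP-seq libraries were analysed. According to the methods and the submitters' processing notes, the authors aligned the reads to build mm9 by BWA, discarded duplicate reads and ran HOMER on every library with its input as background (versions not given in the sources used here). HOMER scaled the deposited normalized tag count, a signal, to library size. Deposited total tags were whole counts in 5 lists but not in A6, EB3 and OCT4, for which the deposited score, a whole number of tags, was used for the intervals. The deposited fold over the input is a ratio with a p-value, and the deposited focus ratio is a fraction. The fold was used, whereas its p-value and the focus ratio did not enter a result. Equal steps of the normalized tag count corresponded to libraries of 12.9 to 31.6 megatags, if scaled to 10 megatags.

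SIM2 sites were chains of clone peaks with centres within 100 bp, without those within 100 bp of an EB3 peak. Distances were taken to GENCODE vM1 gene bodies and start sites. Sequences came from the mm9 genome. Poisson and Wilson intervals (95%) cover counting error only. The members and lists were chosen with earlier results of these data known. The text names the members, each site with SIM2 or several factors, the highest NANOG peak of a gene and, of the further genes, those with a SIM2 site in at least 2 clones or a Mediator peak, except for an item that is not reported here. Input libraries were not used here. Alternatives covered window, merging distance, peak threshold, clones, EB3 filter, gene set and motif window. Assignment to the nearest start site, sites in any clone and ranking by the score were chosen after seeing the data. Python 3.11.15, numpy 2.4.6, pandas 2.3.3, scipy 1.17.1, matplotlib 3.10.9 and bedtools 2.31.1 were used, and the steps were tested on simulated data.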

Additional observations from a re-analysis of the deposited data

How the results depend on the processing

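The 14 NANOG peaks near the 5 genes became 10 within 50 kb, 20 within 200 kb, 13 within 100 kb of a start site and 10 where a member had the nearest start site, and 7 when peaks of at least 8 times the input were required. The 2 SIM2 sites in at least 2 clones became 1 within 50 kb (Lifr), 1 with centres within 50 bp (Stat3), 1 where a member had the nearest start site (Lifr), 0 at 8 times the input and 6 when sites in any clone were counted. Leaving out each clone in turn gave 0 to 2 sites, with 0 left without A6 or without B8 and 2 without C4. These counts follow from the rule of 2 clones, since both sites had peaks of A6 and B8 only, and do not measure robustness. The 6 NANOG peaks with OCT4, MED1 or MED12 became 2 at 8 times the input in every list and 5 to 7 at the other settings. The 1 NANOG peak with a STAT pattern became 4 when 200 bp to either side of the centre were searched. No paired analysis was possible because each line and factor had 1 library and no result came from a test. Each ChIP had a single library within a clone, so the tag intervals hold no biological spread, and a place without a listed peak was below the peak caller's threshold at this depth, which is not the same as unbound.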

Other observations

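In the wider window of 200 bp to either side of the NANOG centres, the STAT pattern TTCNNNGAA was met at 4 of the 14 peaks, against 16.1% of all NANOG peaks. They were the 2 peaks 47.5 and 45.7 kb upstream of Lifr, the peak in the Ptrf exon upstream of Stat3, whose match TTCCCGGAA also fits the stricter pattern (2.27% of all), and the Socs3 site 5.58 kb upstream, with TTCCCAGAA 148 bp from the NANOG centre. The last of these was the only one of the 4 with a SIM2, OCT4 or Mediator peak.

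The SIM2 centre of A6 lay 1 bp from the OCT4 centre at both Lifr and Socs3, and 57 bp from it at Il6st. Of the 783 A6 peaks of the series with an OCT4 peak within 100 bp, 38 (4.85%) had centres within 2 bp, and the median distance was 31 bp. These distances were noticed in the data and were not tested.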
